A study of Mus musculus with 4 samples.

Results

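The NF-κB subunits and their inhibitors were followed in CD4+CD8+ double-positive thymocytes, the immature T cells that are most of the thymus, after 3 h with the synthetic glucocorticoid dexamethasone. The 10 genes were Nfkb1, Nfkb2, Rel, Rela and Relb for the subunits, Nfkbia, Nfkbib, Nfkbie and Tnfaip3 for the inhibitors, and Bcl3, an atypical IκB protein. Every probe set that the platform annotation assigns to a single gene among these was taken, which gave 12 probe sets for 9 of the 10 genes, out of 12422 probe sets and 8251 genes. Nfkb1 had no such probe set and was not analysed here. Of the 9 genes, 7 were bright enough to be tested, among 5582 genes tested in all. Rel and Bcl3 were not, and are given as values.

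Thymocytes of female C3H/HeN mice aged 4 weeks had been isolated with microbeads and plated in 3 ml at 5.0E+06 cells per ml. One group received medium with 0.1% PBS and the other received 1e-07 M dexamethasone in PBS, both for 3 h. Each group was measured on 2 Affymetrix arrays, which the series design calls technical replicate extracts, so the p-values below measure only the spread between extracts. Both groups are short cultures of sorted cells of a single strain and share every other condition that the labels state. In bulk RNA, fewer cells of a kind and less RNA per cell cannot be told apart.

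NF-κB is a dimer of Rel-domain proteins that the IκB proteins, encoded by Nfkbia, Nfkbib and Nfkbie, hold in the cytoplasm until the IκB kinase marks them for destruction. The freed dimer induces genes that include its own inhibitors, so that the pathway switches itself off. Glucocorticoids are known to restrain NF-κB, by induction of inhibitors in some cell types and by direct interference of the receptor with the subunits in others.

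RefSeq promoter windows of 300 bases, 250 before and 50 from the transcript start onwards (assembly GRCm38.p6), were given for 8 of the 10 genes, 11 windows in all. Nfkb1 and Relb had none. The windows of 3 inhibitors are shown because Tnfaip3 rose, Nfkbib fell and Nfkbia passed in neither direction. They read 5′ to 3′ on the strand of the gene, with matches to the 10-base NF-κB consensus, on either strand, in capitals. Tnfaip3 is the window at chr10:19015361-19015660 (minus strand), Nfkbia at chr12:55492598-55492897 (minus strand) and Nfkbib at chr7:28766595-28766894 (minus strand).
Tnfaip3: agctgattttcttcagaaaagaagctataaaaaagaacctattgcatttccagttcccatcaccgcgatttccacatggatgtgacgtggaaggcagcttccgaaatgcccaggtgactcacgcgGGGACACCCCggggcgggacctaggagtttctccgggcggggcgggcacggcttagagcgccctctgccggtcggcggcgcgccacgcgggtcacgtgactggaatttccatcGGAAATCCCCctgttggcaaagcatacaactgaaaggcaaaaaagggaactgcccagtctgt
Nfkbia: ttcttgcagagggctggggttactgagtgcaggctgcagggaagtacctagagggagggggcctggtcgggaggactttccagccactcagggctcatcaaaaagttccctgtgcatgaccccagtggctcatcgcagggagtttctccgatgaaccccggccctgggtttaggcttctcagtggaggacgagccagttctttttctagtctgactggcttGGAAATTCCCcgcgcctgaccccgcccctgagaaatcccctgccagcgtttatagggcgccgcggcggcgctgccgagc
Nfkbib: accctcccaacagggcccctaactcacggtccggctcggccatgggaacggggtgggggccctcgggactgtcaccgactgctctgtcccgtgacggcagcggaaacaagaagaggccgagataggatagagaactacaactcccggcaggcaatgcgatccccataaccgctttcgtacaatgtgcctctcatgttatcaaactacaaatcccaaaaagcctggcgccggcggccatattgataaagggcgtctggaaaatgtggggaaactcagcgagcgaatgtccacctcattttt

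The Tnfaip3 window shown held 2 consensus matches. GGGACACCCC had its first base 125 bases upstream of the start and GGAAATCCCC 12 bases upstream. The second Tnfaip3 window, which is not shown, held 0. Nfkbia held 1, GGAAATTCCC, 29 bases upstream. The Nfkbib window held 0, as did that of Rela. Among the other genes Nfkb2, Rel, Nfkbie and Bcl3 had at least 1 match. In all, 6 of the 8 genes with a window, and 8 of the 11 windows, carried the consensus. Over all promoters, 5.14% of 27025 genes, or 4.51% of 32851 windows of the same length, did. The last 2 of the 3 Nfkb2 windows overlap and share the match GGGACTTTCC. The palindrome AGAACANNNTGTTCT of the glucocorticoid receptor was in 0 of the 11 windows and in 0.00913% of all windows, and its half-site AGAACA was in 1, the second Tnfaip3 window, and in 19.0% of all windows. A match describes these letters only, and binding was not measured.

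**Figure D1:**
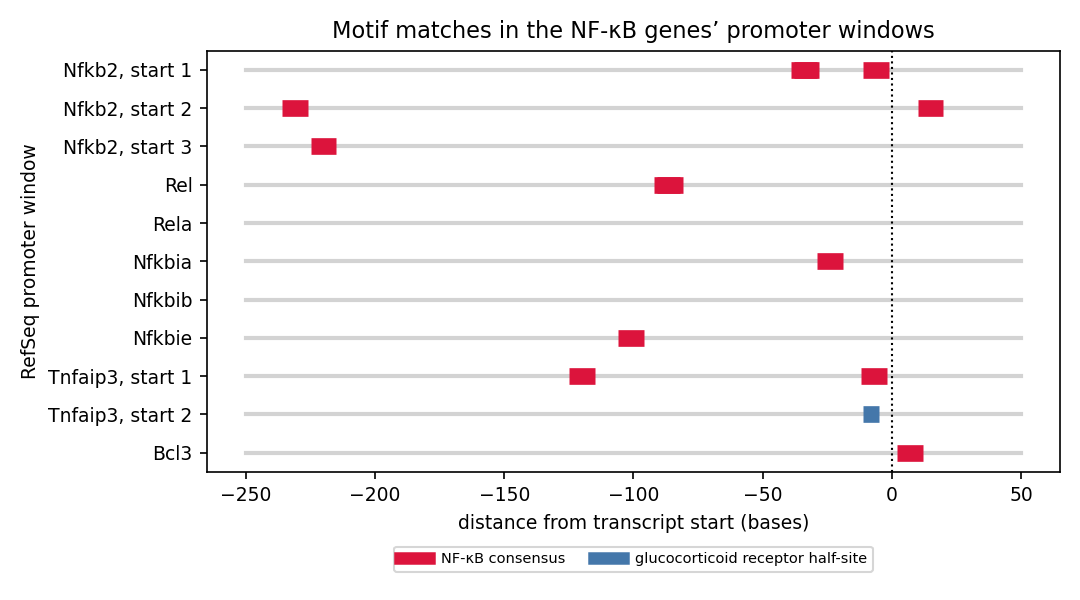
Positions of motif matches in the 11 RefSeq promoter windows of 8 NF-κB genes. The x axis is the distance from the transcript start in bases, grey lines are the windows, red blocks the NF-κB consensus and the blue block the glucocorticoid receptor half-site. Consensus matches lie in windows of 6 genes, while the windows of Rela and Nfkbib and the second Tnfaip3 window hold 0.

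All arrays shared a trimmed mean of 100.06 to 100.07, so directions are relative to that scaling. Cells responded to the steroid: the chaperone gene Fkbp5 had a signal of 625 ± 49.6 in medium and rose to 2267 ± 162 (mean ± SD, n = 2, limma adjusted p = 0.000349). Tsc22d3, whose product binds NF-κB, was the other gene named as a check of the treatment. It was at background, with 4.50 as its highest signal, so this check showed no response. A silent gene and a probe set that misses its transcript cannot be told apart there. Background here means a signal of at most 14, the highest of 19 probe sets for transcripts not added to the sample. Of 15 listed markers of double-positive thymocytes 11 were tested and 0 were at background, with Cd4 at 465 and Cd8a at 2457 in medium. Of the 11, Satb1 rose (log2 difference 0.43 ± 0.07, limma adjusted p = 0.0315), and Ptcra (-0.84 ± 0.12, limma adjusted p = 0.0192) and Cd8b1 (-0.33 ± 0.06, limma adjusted p = 0.0466) fell. On the dexamethasone arrays the actin 3′ to 5′ signal ratio was 1.40 and 1.24, against 1.15 and 1.06 in medium. The same ratio for Gapdh overlapped between the groups, with 0.90 and 0.82 against 0.84 and 0.85 in medium. The 9 hybridization controls were 1.37-fold higher on the dexamethasone arrays. The part of these values in the results was not tested.

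Rela, which encodes p65, the main transactivating subunit, was bright on all 4 arrays and did not pass the test. The medium arrays gave signals of 885 and 798, the dexamethasone arrays 952 and 853. The lower dexamethasone array lay below the higher medium array, so the groups overlapped. The log2 difference was 0.10 ± 0.09 (SE), with a 95% interval from -0.10 to 0.31 (limma adjusted p = 0.565). A second Rela probe set gave 1 or less on all arrays, at background, and carries no information on the gene.

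Nfkb2 encodes p100, which acts as an inhibitor until it is processed to the p52 subunit. The medium arrays read 40.8 and 31.5 and the dexamethasone arrays 39.1 and 31.8, so that both dexamethasone values lay within the medium range. The log2 difference was -0.02 ± 0.20 (limma adjusted p = 0.965), with a 95% interval from -0.51 to 0.47. Relb, the partner of p52 in the noncanonical pathway, gave 26.4 and 31.7 in medium and 35.5 and 25.1 with dexamethasone. Here the dexamethasone values spanned the medium values, and the log2 difference was 0.04 ± 0.23 (interval -0.51 to 0.60, limma adjusted p = 0.938). Both intervals are wide and run to either side of 0, so neither a rise nor a fall within them is shown or excluded. The dimmer Relb probe set was at background, with 1.4 and 1.2 in medium and 3.0 and 5.8 with dexamethasone.

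Rel, which encodes c-Rel, a subunit used by activated lymphocytes, had signals of 0.9 and 2.3 in medium and 0.8 and 1.9 with dexamethasone. All 4 values were at background, so no fold is given and no direction can be read. Of the 4 subunits with a probe set, 3 were therefore tested, and 0 passed the threshold of 0.05 after Benjamini-Hochberg adjustment in limma. At an unadjusted p under 0.05 the count was also 0. Over all genes 3.91% passed, and 19.9% had an unadjusted p under 0.05, so that 0 of 3 is near either share.

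Tnfaip3 rose and was the member with the largest difference. It encodes A20, a ubiquitin-editing enzyme that shuts off signalling above the IκB kinase. Medium arrays gave signals of 119 and 145, dexamethasone arrays 249 and 290. Both dexamethasone values exceeded both medium values. The means were 132 ± 18.7 and 269 ± 29.1 (SD, n = 2), a log2 difference of 1.03 ± 0.13 (SE) or 2.04-fold (95% interval 0.72 to 1.33, limma adjusted p = 0.0113), ranked 73 of 5582 by p-value.

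Nfkbib fell. It encodes IκBβ, which retains Rel-containing dimers. Medium arrays gave signals of 177 and 174, dexamethasone arrays 130 and 126. Both dexamethasone values were below both medium values. The means were 175 ± 1.70 and 128 ± 2.97, a log2 difference of -0.45 ± 0.08 (interval -0.66 to -0.25, limma adjusted p = 0.0417), or 1.37-fold lower. The 2 members that passed thus moved in opposite directions, and both encode inhibitors.

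Nfkbia encodes IκBα, the inhibitor most directly induced by NF-κB and a gene often named as a glucocorticoid target. Its brighter probe set read 1175 and 1061 in medium and 1291 and 1300 with dexamethasone. The groups did not overlap, and the log2 difference was 0.21 ± 0.07, with a 95% interval from 0.04 to 0.39. The unadjusted limma p was 0.0227 and the adjusted p 0.170, so Nfkbia did not pass. The dimmer probe set gave 356 and 346 in medium and 500 and 348 with dexamethasone. Only the first dexamethasone array stood apart there, and the difference of 0.25 ± 0.16 did not pass (limma adjusted p = 0.469 over probe sets).

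Nfkbie, which encodes IκBε, had signals of 57.5 and 53.5 in medium and 63.7 and 59.2 with dexamethasone. The groups did not overlap, but the gap between them was smaller than the spread within either, and the log2 difference was 0.14 ± 0.13 (interval -0.17 to 0.46, limma adjusted p = 0.590). Bcl3, whose product binds p50 and p52 dimers in the nucleus and can act as a coactivator, read 5.0 and 6.6 in medium and 8.6 and 17.2 with dexamethasone. Only the last value exceeded the background of 14, so no fold is given.

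**Figure D2:**
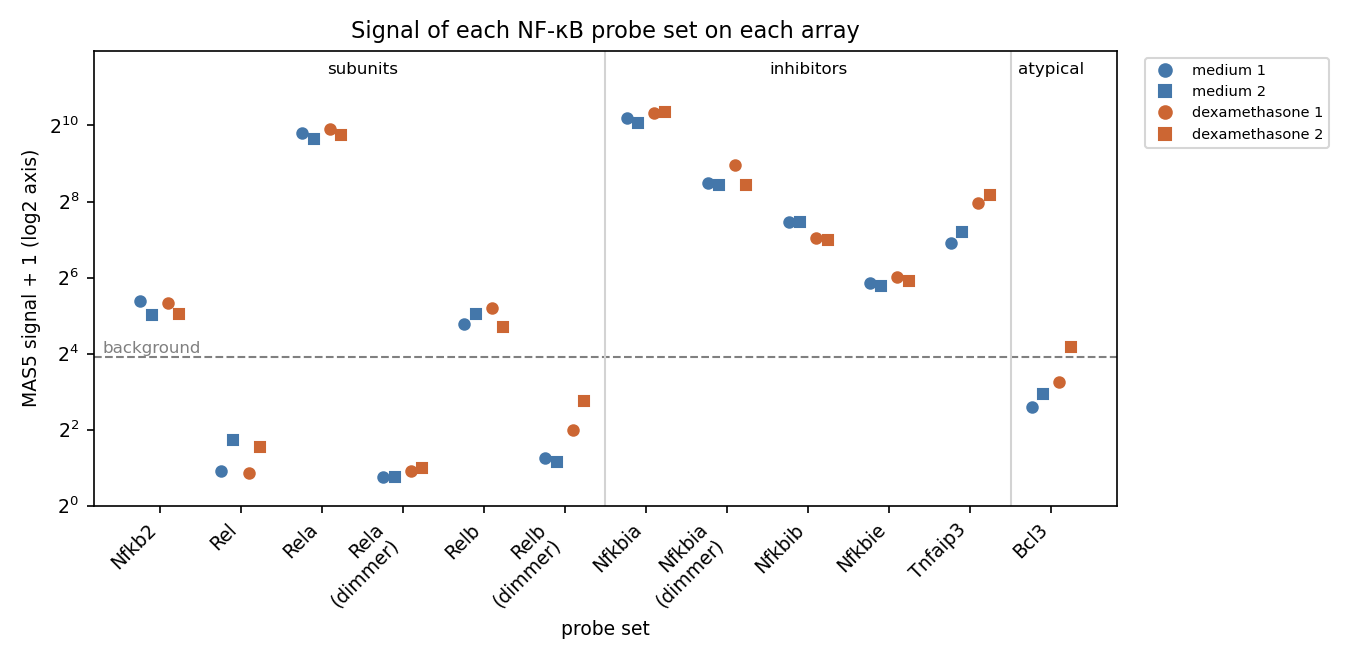
MAS5 signal plus 1, on a log2 axis, of each of the 12 NF-κB probe sets on the 4 arrays. Blue marks the 2 medium arrays, orange the 2 dexamethasone arrays, and the dashed line the background of 14. Tnfaip3 is higher and Nfkbib lower on both dexamethasone arrays, while the Nfkb2, Rela and Relb values of the groups overlap.

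Among the inhibitors, 4 of 4 had groups that did not overlap, 3 higher and 1 lower, against 0 of the 3 tested subunits. Over all tested genes 50.5% did not overlap, 24.7% on the higher side and 25.7% on the lower. For the 2 of 7 tested members that passed the adjusted threshold, the share over all genes was 3.91%, with 1.88% rising and 2.02% falling. No tested member had entered the test through a single group, since each was above the limit of 10.1 in both. Over probe sets, 2 of the 8 tested passed, the same Tnfaip3 and Nfkbib probe sets, against 3.15% of 7453.

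**Figure D3:**
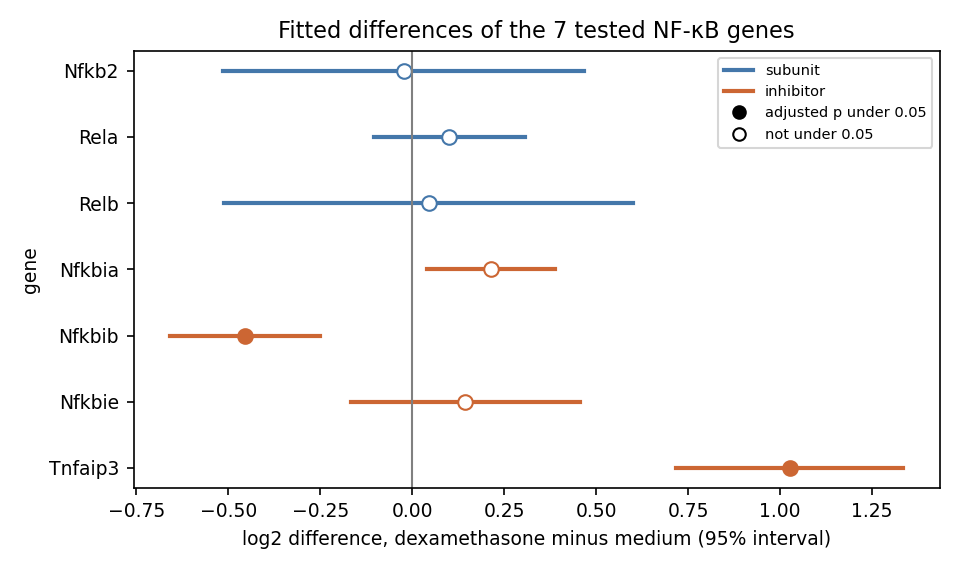
Fitted log2 differences, dexamethasone minus medium, of the 7 tested NF-κB genes, with 95% intervals as bars. Blue is for subunits, orange for inhibitors, and filled points had an adjusted p under 0.05. Tnfaip3 at 1.03 and Nfkbib at -0.45 are filled, and the 3 subunit intervals include 0.

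Set against each other, the inhibitors had a median log2 difference of 0.18 (from -0.45 to 1.03) and the tested subunits one of 0.04 (from -0.02 to 0.10), beside 0.00 over all genes. The subunits thus lay close together while the inhibitors were spread to both sides. Averaged per array, with each gene centred on its medium mean, inhibitors minus subunits came to -0.05 and 0.05 on the medium arrays and to 0.03 and 0.36 on the dexamethasone arrays. The first dexamethasone array lay within the medium range, so the classes did not part beyond the spread between arrays. The mean difference between the classes, 0.19, owed its sign to Tnfaip3: the IκB genes Nfkbia, Nfkbib and Nfkbie alone had a mean of -0.03, against 0.04 for the subunits. Since this contrast is taken within arrays, scaling changes it little, and it was 0.19 with scaling to the hybridization controls.

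Upstream of the inhibitors, the kinases, adaptors and ubiquitin ligases that activate the pathway were taken from a list of 30 genes. Of these, 21 had a probe set and were tested, and 0 passed in limma, near the 3.91% of all genes. At an unadjusted p under 0.05 there were 2 of 21, beside 19.9% of all genes. Their median log2 difference was 0.03, with 11 higher and 10 lower. The largest differences were those of Tbk1, an IκB kinase relative, at 0.30 ± 0.10, and Cul1, the scaffold of the ligase that marks IκBα, at 0.26 ± 0.09. Among the subunits of the IκB kinase itself, the catalytic Ikbkb had 45.3 in medium and 43.4 with dexamethasone, and the regulatory Ikbkg 83.2 and 86.2.

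Other brakes of the pathway gave 3 falls and 0 rises among 13 tested of 22 listed, beside 2.02% of all genes falling and 1.88% rising. At an unadjusted limma p under 0.05 there were 6 of 13, beside 19.9% of all genes. Of these 6, Tax1bp1 and N4bp1 were higher and the others lower. The median log2 difference of the list was -0.08. Zfp36, which encodes an mRNA decay protein that limits inflammatory transcripts, fell from 138 ± 1.06 to 76.8 ± 0.21 (log2 difference -0.83 ± 0.10, limma adjusted p = 0.00878). Socs1, an inhibitor of cytokine signalling that also promotes p65 turnover, fell from 2188 ± 159 to 1372 ± 77.4. Hdac1, a deacetylase that represses NF-κB targets and many other genes, fell from 426 ± 6.65 to 315 ± 7.64, a log2 difference of -0.43 ± 0.07. Tax1bp1, an adaptor of A20, did not pass at 0.26 ± 0.06 (limma adjusted p = 0.0786). Neither did Tnip1, which binds A20, at -0.20 ± 0.07. N4bp1, the highest of the list at 0.63 ± 0.22, did not pass either (limma adjusted p = 0.179). Tax1bp1, Tnip1 and N4bp1 were picked after their values were seen.

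Of the transcripts listed as NF-κB targets, many were not above background. Of 50 listed targets 45 had a probe set, and 22 of these stayed at background on all arrays, among them Tnf, Il2, Il2ra, Il6, Cxcl10 and Vcam1. Of the 24 tested, 0 passed in limma, near the 3.91% of all genes, and 8 had an unadjusted p under 0.05, beside 19.9% of all genes. There were 8 higher and 16 lower, against 2797 higher and 2785 lower over all genes, and the median log2 difference was -0.07. The member genes were kept out of this list, including the inhibitors that NF-κB itself induces, so these counts do not cover them. Traf1, a signalling adaptor, read 18.1 and 24.9 in medium and 9.20 and 2.00 with dexamethasone. That is at least 1.54-fold lower against background (limma adjusted p = 0.131). The mean of Traf1 was 21.5 in medium but 5.6 with dexamethasone, which is under the signal limit for testing. Traf1 thus entered the test through the medium group alone, so its p-value cannot decide whether it fell. The counts of this list include Traf1. Lta, which encodes lymphotoxin alpha, read 15.7 and 21.7 in medium and 37.4 and 27.6 with dexamethasone, with a log2 difference of 0.77 ± 0.26 (limma adjusted p = 0.169). Ltb, its membrane partner and a bright target, had -0.30 ± 0.07 without passing (limma adjusted p = 0.0660). Gadd45a was higher, at 0.50 ± 0.11, also without passing (limma adjusted p = 0.0601). The others with an unadjusted limma p under 0.05 were Bcl2l1 (-0.47 ± 0.10), Irf1 (-0.44 ± 0.11) and Nr4a1 (-0.75 ± 0.20), all lower, and Birc2 (0.26 ± 0.09), higher. Ltb, Gadd45a, Bcl2l1, Irf1, Nr4a1 and Birc2 were chosen after their values were seen.

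**Figure D4:**
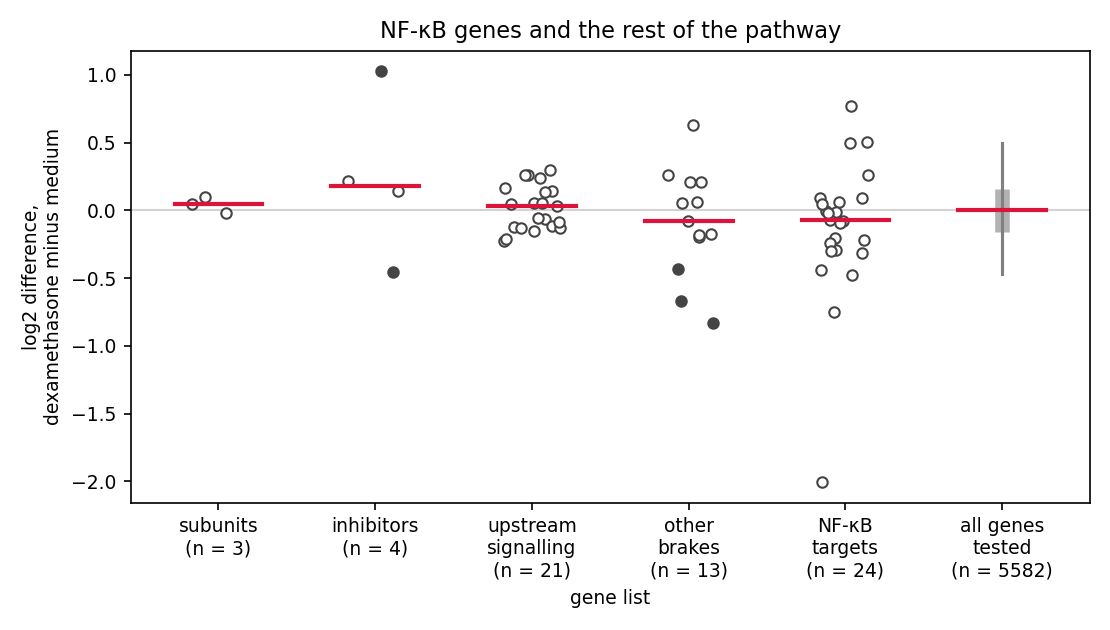
Log2 differences of the tested subunits, inhibitors, upstream genes, other brakes and targets. Each point is a gene, filled where the adjusted p was under 0.05, and red bars are medians. The grey bars at the right give the middle 50% and 90% of all 5582 genes. Subunits and upstream genes lie near 0, and the lowest target, Traf1, is at background with dexamethasone, so its fitted value is no bound.

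Markers of other cell types ranged from background to bright, with Ighm at 1270, Cd74 at 388 and Cd6 at 249 in medium. Of 9 B cell markers with a probe set, Cd22, Fcer2a and Vpreb3 were at background, and 1 of 6 tested rose, Ighm. The list summed to 1449 and 1420 in medium and to 1945 and 1926 with dexamethasone, most of it Ighm. Without Ighm the sums were 166 and 163 in medium and 193 and 177 with dexamethasone, and the other 5 tested markers, with signals of 13.8 to 96.5, did not pass. Of 14 macrophage and dendritic cell markers, Lyz2, Itgam, Adgre1, Fcgr3 and C1qa were at background, and 0 of 10 tested passed in limma (3 at an unadjusted p under 0.05). That list summed to 752 and 755 in medium and to 638 and 603 with dexamethasone. Of 9 epithelial markers, Epcam, Foxn1, Krt5, Krt8, Krt14 and Krt18 were at background, and 1 of 3 tested fell, Cldn4. The sums were 270 and 302 in medium and 189 and 180 with dexamethasone. Their fall came from Cldn4, which read 203 and 210 in medium and 87.4 and 97.8 with dexamethasone. Aire, at 0.03 ± 0.23, and Ly75, at 0.12 ± 0.23, did not pass. Of 7 tested markers of mature single-positive thymocytes, Il7r rose and 0 fell, S1pr1 was at background, and the sums were 808 and 827 in medium and 854 and 864 with dexamethasone. Without Il7r they were 758 and 769 in medium and 707 and 725 with dexamethasone. Of the 7 tested, 5 were lower, with Itgb7 at -0.39 ± 0.09 (limma adjusted p = 0.0633) and Cd5 at -0.52 ± 0.17 (limma adjusted p = 0.167), and 3 had an unadjusted p under 0.05. The part of these lists in the differences of the NF-κB genes was not tested.

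The profiles nearest to Tnfaip3, by Euclidean distance of medium-centred log2 signals over the 4 arrays among 5581 genes, were those of Col1a1, Slc30a4 and Klk1b5, at distances of 0.11, 0.12 and 0.18. Of these, Slc30a4, a zinc transporter gene, rose. Col1a1 and Klk1b5 did not pass and lay near or under the background of 14 in medium. Their means were 17.45 and 11.85 in medium and 35.85 and 24.55 with dexamethasone. Nearest to Nfkbib were Sinhcaf, Galnt2 and Trak1, at 0.04, 0.05 and 0.05, of which Galnt2 and Trak1 fell.

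When each array was left out in turn, the call of Nfkbib was lost each time and that of Tnfaip3 in 3 of 4 cases. The adjusted p of Tnfaip3 was 0.0472 to 0.0845, under 0.05 only without the second medium array, and that of Nfkbib was 0.120 to 0.233, while the log2 differences stayed at 0.88 to 1.17 and at -0.48 to -0.43. Scaling to the hybridization controls moves the median of all genes to -0.45. Under it the log2 difference of Tnfaip3 was 0.57 and that of Nfkbib -0.91, both past the threshold, and Rela (-0.36), Relb (-0.40), Nfkbia (-0.24) and Nfkbie (-0.30) turned to lower values without passing.

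**Figure D5:**
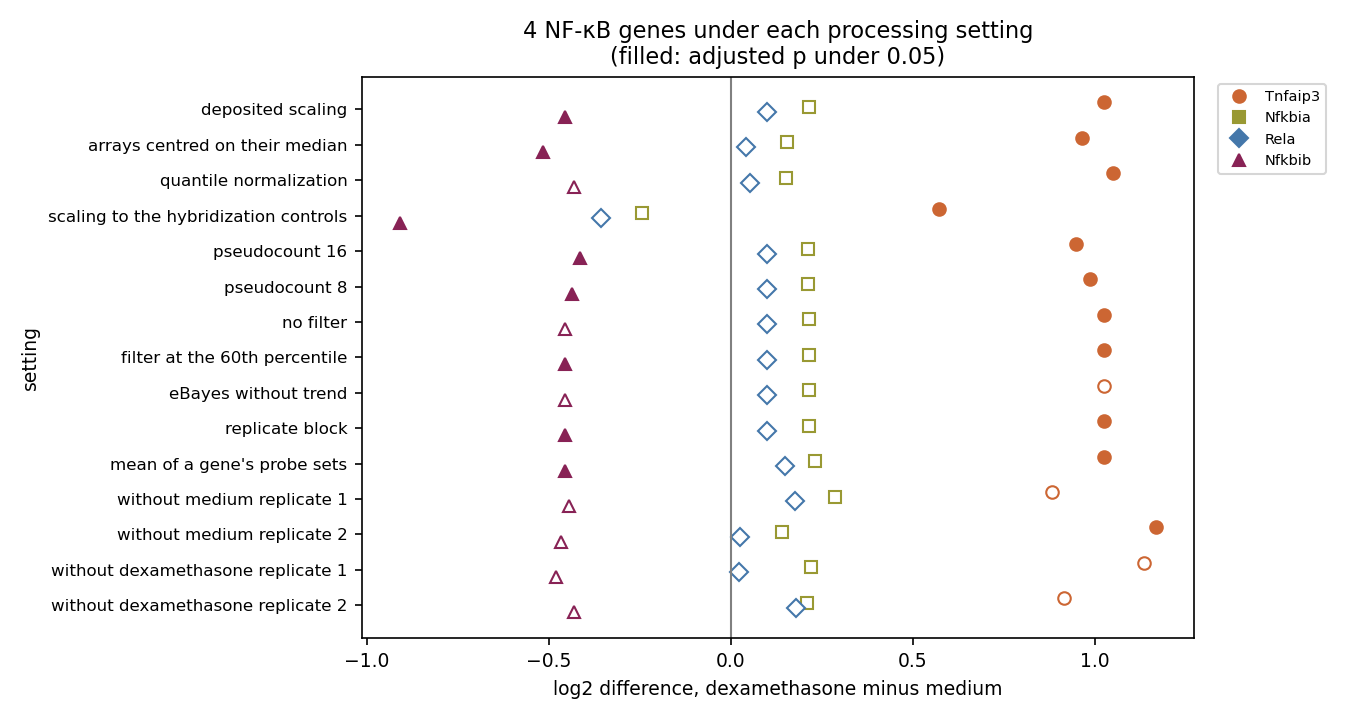
Log2 difference, dexamethasone minus medium, of Tnfaip3, Nfkbia, Rela and Nfkbib at the deposited scaling and under each alternative. Filled points had an adjusted p under 0.05. Tnfaip3 stays above 0 and Nfkbib below 0 in all settings shown, while Nfkbia and Rela cross 0 with scaling to the hybridization controls.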

How the data were processed

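Per the submitters' processing notes, the authors made the deposited values with MAS5, whose version and settings are not given in the sources used here. The values are intensities on a linear scale, 1 column per array, with no detection calls, and the shared trimmed mean (2% from each end) shows a global scaling by the authors. Of 12488 probe sets, 66 were controls. Of the rest 10833 named 1 gene in the platform annotation, 396 several and 1193 none. The gene IDs of the 9 members matched the RefSeq table.

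Signals were analysed as log2(signal + 1), so fold changes of dim genes are understated. A gene was represented by its brightest probe set, and genes with a mean at or under the 40th percentile of probe sets, a signal of about 10.1, were left out. Dexamethasone was compared with medium in lmFit and eBayes with a trend (R 4.3.3, limma 3.58.1) in two-sided tests, adjusted by Benjamini-Hochberg over all 5582 genes or, for probe sets, all 7453. Data were simulated for the 5582 genes with independent normal errors and with variances from the distribution that this same fit had estimated. On these the fit called 25.9% of changes of 0.5 and 66.3% of changes of 1 on the log2 scale. Of its calls, 6.21% were unchanged genes. These shares describe that model only, since effects shared by the genes of an array were not simulated, and give no error rate for the real arrays. The number of arrays limits the precision. Replicate numbers in the labels gave a correlation of 0.07 between the deviations of same-numbered arrays and were not taken as pairs.

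The members, gene lists and tests were chosen with earlier results of these data known, so no test over the lists is given. Named were all members, the genes of each pathway list that passed (otherwise the 2 with the largest difference), Fkbp5 and Tsc22d3, and the 3 nearest profiles of each member that passed. Outside this rule, and chosen after their values were seen, are Tax1bp1, Tnip1, N4bp1, Ltb, Gadd45a, Bcl2l1, Irf1, Nr4a1 and Birc2. The same holds for Ikbkb, Ikbkg and the named markers of cell types. Alternatives changed the scaling (3 settings), the pseudocount (2), the filter (2), the variance trend, the block by replicate number, how a gene's probe sets are combined, the class of Bcl3 and which array is left out.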

Additional observations from a re-analysis of the deposited data

How the results depend on the processing

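Over 14 alternatives Tnfaip3 stayed higher and passed in 10, and Nfkbib stayed lower and passed in 7. The count of changed members, 2, was 1 with quantile normalization (Nfkbib adjusted p = 0.0541), 1 without the filter (0.0635) and 0 in the fit without trend, where the adjusted p was 0.108 for Tnfaip3 and 0.139 for Nfkbib, and it was 0 to 1 when any array was left out. The count of changed member probe sets was 1, 1 and 0 under the same settings and 0 to 1 without any array. The replicate block, which rests on a number and not on a stated pairing, kept both member calls and gave 353 changed genes in place of 218 and 5 changed pathway genes in place of 3.

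Changed pathway genes numbered 5 with arrays centred on their median, 26 (all lower) with scaling to the hybridization controls, 5 with the filter at the 60th percentile, 0 without trend and 0 to 1 without any array. Changed genes in all numbered 2513 with scaling to the hybridization controls (43 higher, 2470 lower), 116 without the filter, 19 without trend and 33 to 66 without any array. Of the calls, 48.2% were rises at the deposited scaling and 36.2% with arrays centred on their median. Relb turned to -0.016 with arrays centred on their median. With scaling to the hybridization controls, Rela was at -0.36, Relb at -0.40, Nfkbia at -0.24, Nfkbie at -0.30, Tbk1 at -0.15 and Cul1 at -0.19. Leaving out an array gave -0.20 to 0.16 for Nfkb2 and -0.20 to 0.29 for Relb. Inhibitors minus subunits ranged from 0.03 to 0.36 without any array, and counting Bcl3 as an inhibitor gave 0.34, a value that rests on a gene at background on 3 of 4 arrays. The hybridization-control scaling shifts every gene alike, leaving out an array leaves 1 sample in a group, assumed to vary like the other, and the cause of the other changes was not tested. Signal over background limits Rel, Bcl3 and the dimmer Rela and Relb probe sets, for which no change could be measured.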
